A study of Saccharomyces cerevisiae with 4 samples.

Results

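The 9 genes described here build cell polarity in budding yeast, Saccharomyces cerevisiae. They are CDC42 (YLR229C), CDC24 (YAL041W), BEM1 (YBR200W), RGA1 (YOR127W), STE20 (YHL007C), CLA4 (YNL298W), BNI1 (YNL271C), BNR1 (YIL159W) and SPA2 (YLL021W), and they were taken by systematic name from a table of 6172 genes. All 9 had a value on every array and were among the 4730 genes tested, each measured by 1 feature. Every array set RNA of an rlm1 mutant culture held 3 hours with zymolyase at 5 units per ml against RNA of an untreated part of a culture of the same mutant, grown on without the enzyme. Both parts grew in rich medium at 24 °C, and both were mutant for RLM1, which encodes a transcription factor that the cell wall integrity pathway activates; no wild-type strain was in the comparison. The labels give neither the allele nor the strain background, and RLM1 itself had no value on any array, so the ratios do not check the genotype. Zymolyase is a preparation of wall-digesting enzymes. There were 4 arrays of 2 colours from 2 cultures, with zymolyase RNA in Cy3 on arrays 1 and 3 and in Cy5 on arrays 2 and 4.

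Cdc42 is a small GTPase that marks the place where a bud will grow. Its exchange factor Cdc24 loads it with GTP, the scaffold Bem1 holds Cdc24 close to Cdc42 and its kinases, and GTPase-activating proteins such as Rga1 switch it off. Active Cdc42 binds the p21-activated kinases Ste20 and Cla4 and acts on the formin Bni1. The formins Bni1 and Bnr1 nucleate the actin cables along which wall-building vesicles travel. Growth and wall synthesis are thus directed to the same patch of the surface, and Spa2, a scaffold of the polarisome at the bud tip, is known also to bind kinases of the wall integrity cascade.

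All values below are log2 ratios of zymolyase over untreated RNA, on the assumption that the deposited logarithms are to base 2. Which dye stands on top is stated in no source used here. Cy3 over Cy5 is the likely reading, because it puts strongly changed osmotic stress genes, HSP12 (mean 2.75), GPD1 (1.84), GPP2 (1.43) and GRE2 (1.42), on the zymolyase side. These genes were chosen with their values known, and not every stress gene lies there (HSP26 at -0.11, SSA3 at -0.33). SSA3 had large values of 1.34, -2.99, 1.12 and -0.77 on arrays 1 to 4. It had one sign only as deposited, before arrays 2 and 4 were multiplied by -1. The opposite reading would turn every sign below. The arrays arrived centred near 0, so a ratio is relative to the bulk of genes on its array. Array 2 stood apart from the others, with 4814 features that had a value against 5543 to 5657, and an SD over features of 0.63 against 0.32 to 0.35. Arrays of one dye orientation correlated across tested genes at r = 0.60 (1 and 3) and 0.44 (2 and 4), and arrays of opposite orientation between -0.13 and 0.051, a description across genes that are not independent. Where leaving out array 2 turned a mean or moved it clearly, the mean of the other arrays is also given. The dye orientations are then unequal in number, so a dye effect no longer cancels. The shift mixes array 2 with dye orientation.

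None of the 9 polarity genes passed the test with zymolyase, against 3.15% of all tested genes (149 of 4730; 2.35% were higher and 0.803% lower with zymolyase). The test was limma on the means of the 2 cultures, and a call needed a Benjamini-Hochberg adjusted p under 0.05 in both ways of assigning the arrays to cultures. No member had an unadjusted p under 0.05 either, and none passed in limma with a dye term over the 4 arrays, where 1.63% of tested genes did. Their means ran from -0.29 for BNI1 to 0.20 for CLA4, with 5 positive and 4 negative. The median of the 9 means was 0.029, beside -0.012 for all tested genes, and the median size was 0.076, beside 0.12. All genes shared 1 standard error, 0.16, because the fit pooled the spread over genes, and the smallest mean that passed anywhere was 0.51 in size, a 1.43-fold change. The 95% interval of every member reached 0.32 to each side of its mean, so any mean smaller than that had an interval that included 0. Because of the pooling, the intervals do not follow a gene's own spread. They are as wide for SPA2 (SD 0.062 over the arrays) as for CDC42 (SD 0.67).

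**Figure D1:**
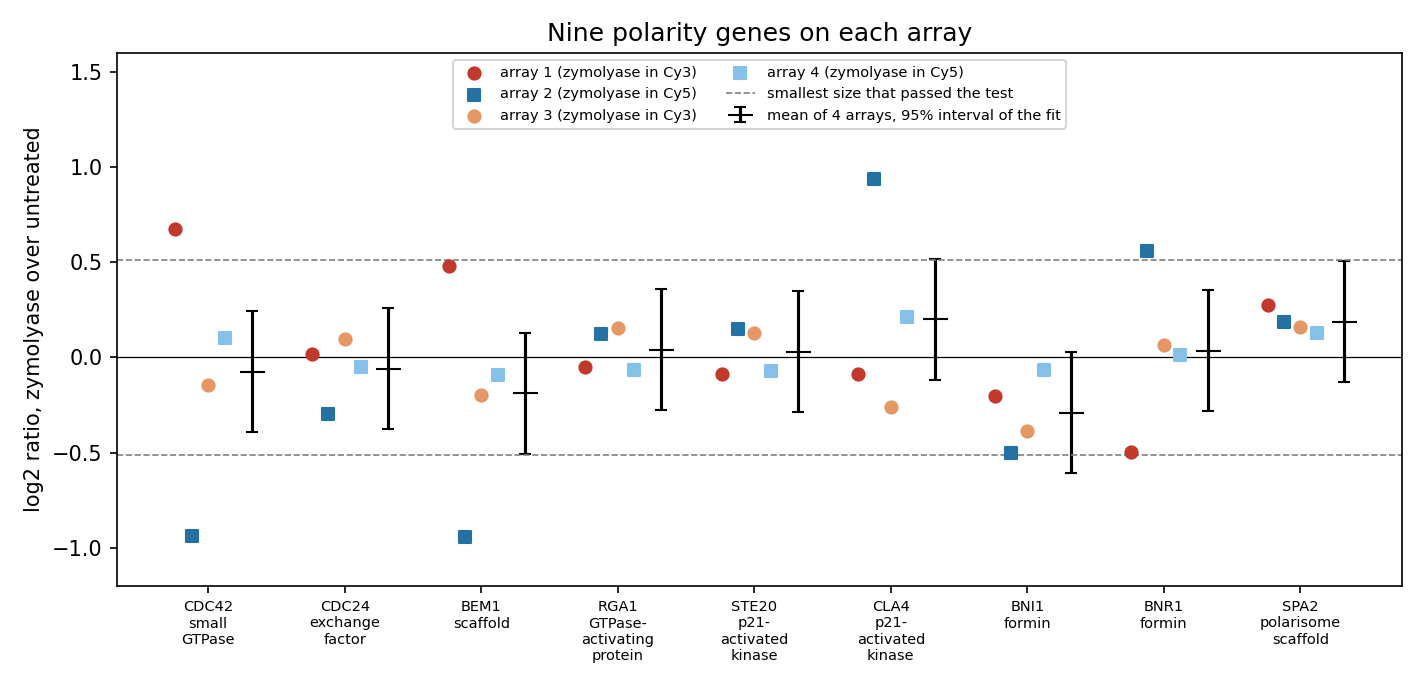
Log2 ratio of zymolyase over untreated RNA (vertical axis) for the 9 polarity genes on each array, with the mean and the 95% interval of the limma fit; dashed lines mark the smallest mean size that passed the test in any gene, 0.51. SPA2 lies above 0 and BNI1 below 0 on all 4 arrays, while all other genes have values on both sides, farthest apart in CDC42, BEM1, CLA4 and BNR1.

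CDC42, the GTPase at the centre of the system, had log2 ratios of 0.67, -0.94, -0.14 and 0.10 on arrays 1 to 4. It was high on array 1 and low on array 2, with the other arrays near 0. The mean was -0.076 ± 0.67 (SD, n = 4 arrays from 2 cultures), a 0.95-fold level. The 95% interval from the pooled standard error was 0.76 to 1.18, and it takes no account of the large spread of CDC42 itself. The adjusted p in limma was 0.95. Without array 2 the mean of the others was 0.21, but the dye orientations are then unequal in number. With the arrays scaled to equal spread the CDC42 mean was 0.10, so its sign changed under either setting.

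CDC24, which encodes an exchange factor that loads Cdc42, had values of 0.017, -0.30, 0.097 and -0.053 on arrays 1 to 4. These lay on both sides of 0 and within a narrow band. Its mean was -0.059 ± 0.17 (interval -0.38 to 0.26; limma adjusted p = 0.97), and 0.020 without array 2.

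BEM1, the scaffold gene, had values of 0.48, -0.95, -0.20 and -0.095 on arrays 1 to 4. As with CDC42, array 1 was the highest and array 2 the lowest. The mean was -0.19 ± 0.59 (interval -0.51 to 0.13; limma adjusted p = 0.73) and became 0.063 without array 2. RGA1, for the GTPase-activating protein, had values of -0.052, 0.12, 0.15 and -0.065, with a mean of 0.040 ± 0.11 (interval -0.28 to 0.36; limma adjusted p = 0.98). Of all tested genes only 7.10% had an SD over the arrays as small as that of RGA1 or smaller.

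The p21-activated kinase genes differed in spread. STE20, whose kinase also serves mating, filamentous growth and a branch of the osmotic stress pathway, had values of -0.088, 0.15, 0.13 and -0.073 on arrays 1 to 4. Its mean was 0.029 ± 0.13 (interval -0.29 to 0.35; limma adjusted p = 0.98), and -0.011 without array 2. CLA4, whose kinase also takes part in septin ring assembly, had values of -0.085, 0.94, -0.26 and 0.21. Its mean of 0.20 ± 0.53 was the highest of the 9 (interval -0.12 to 0.52; limma adjusted p = 0.70) but was -0.044 without array 2. Within arrays, the ratio of STE20 minus that of CLA4 was -0.0033, -0.79, 0.39 and -0.28, so the pair kept no one order.

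Of the formin genes, BNI1 was below 0 on every array. Bni1 works at the bud tip in the polarisome, and its gene had values of -0.20, -0.50, -0.39 and -0.068 on arrays 1 to 4. The mean, -0.29 ± 0.19, was the lowest of the 9, a 0.82-fold level with an interval of 0.66 to 1.02, and did not pass (limma adjusted p = 0.48). It stayed between -0.36 and -0.22 whichever array was left out. BNR1, for the formin of the bud neck, had values of -0.50, 0.56, 0.066 and 0.012, with the extremes on arrays 1 and 2. Its mean was 0.035 ± 0.43 (interval -0.28 to 0.35; limma adjusted p = 0.98), -0.14 without array 2, and -0.057 with the arrays scaled to equal spread. BNI1 lay below BNR1 on 3 of 4 arrays, with differences of 0.30, -1.07, -0.45 and -0.080, a mean of -0.32 ± 0.58.

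SPA2, the polarisome scaffold gene, was above 0 on every array, at 0.27, 0.19, 0.16 and 0.13. The spread was small: the SD of 0.062 was at the level of the lowest 1.50% of tested genes. Its mean was 0.19 (interval -0.13 to 0.51), a 1.14-fold level, and did not pass (limma adjusted p = 0.73, or 0.57 with a dye term). The mean lay between 0.16 and 0.21 with any 1 array left out. One sign on all 4 arrays, as in SPA2 and BNI1 (2 of 9), was found in 16.8% of tested genes, 7.99% positive and 8.79% negative.

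**Figure D2:**
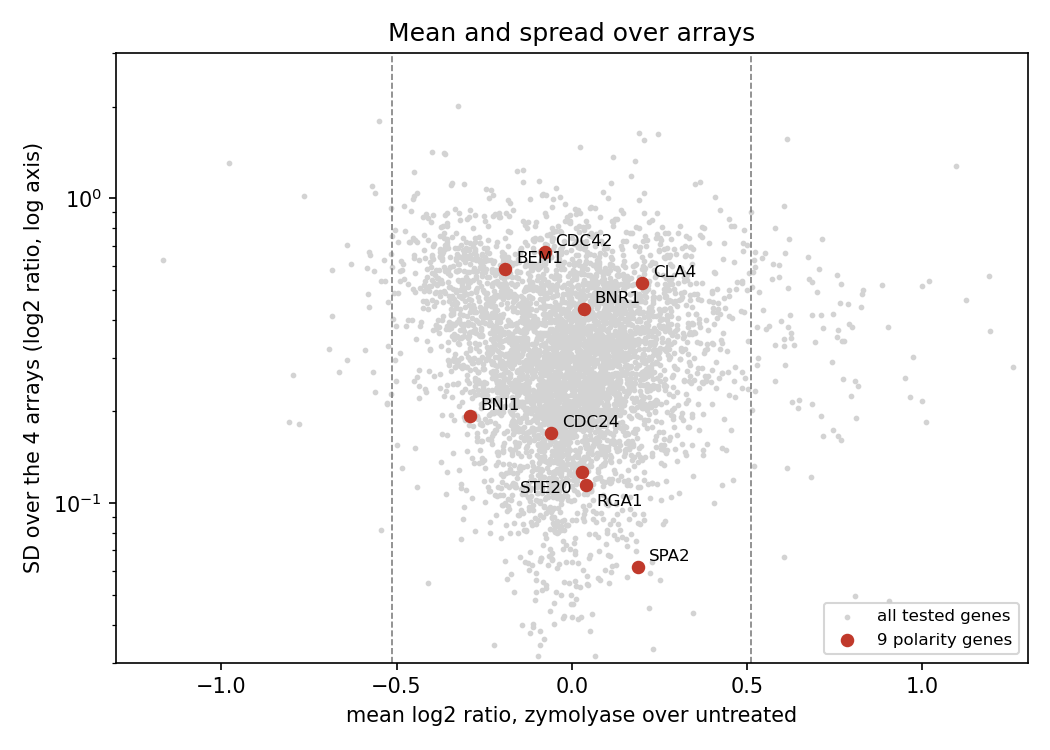
Mean log2 ratio of zymolyase over untreated RNA (horizontal axis) against the SD over the 4 arrays (vertical, log axis) for all tested genes in grey and the 9 polarity genes in red, with dashed lines at the smallest mean size that passed; 23 tested genes lie outside the axes. The 9 sit inside the dashed lines, with SDs from 0.062 for SPA2 to 0.67 for CDC42.

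CLA4, BNR1, CDC42, BEM1 and CDC24 had means of opposite sign in the dye orientations. CLA4 averaged -0.17 with zymolyase in Cy3 and 0.57 with zymolyase in Cy5, a difference of -0.75. CDC42 averaged 0.27 where zymolyase RNA carried Cy3 and -0.42 where it carried Cy5, and BEM1 averaged 0.14 and -0.52 in the same orientations, differences of 0.68 and 0.66. BNR1 differed by -0.50, CDC24 by 0.23, and SPA2, RGA1, STE20 and BNI1 by 0.058 or less in size. Differences as large as those of CLA4, CDC42, BEM1 and BNR1 were found in 14.2%, 17.6%, 19.4% and 31.1% of tested genes, so they were common on these arrays. In the deposited direction, before arrays 2 and 4 were turned, CDC24 was positive on all 4 arrays and CLA4 negative on all 4, which held for 12.7% and 15.8% of tested genes. An equal dye effect cancels in the tested means; its part in single values was not tested.

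**Figure D3:**
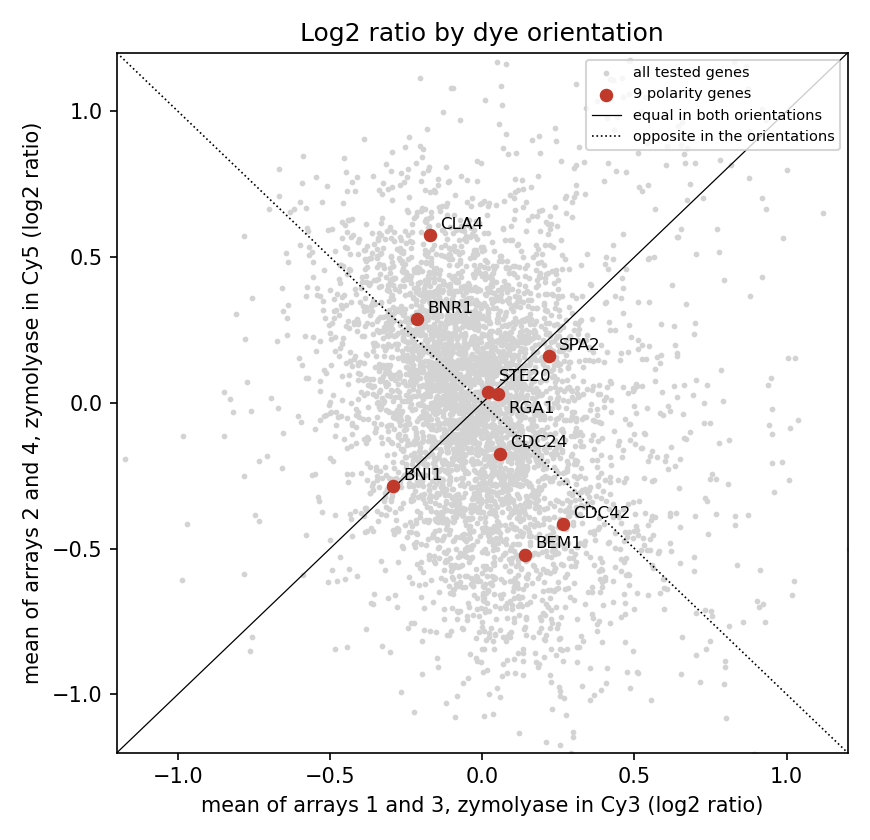
Mean log2 ratio of arrays 1 and 3, with zymolyase in Cy3 (horizontal axis), against that of arrays 2 and 4, with zymolyase in Cy5 (vertical axis), for all tested genes in grey and the 9 polarity genes in red; 44 tested genes lie outside the axes. BNI1 and SPA2 lie close to the line of equal ratios, whereas CLA4, BNR1, CDC42, BEM1 and CDC24 have opposite signs in the orientations.

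CDC42 and BEM1 had similar profiles over the arrays. The ratio of CDC42 was above that of BEM1 by 0.19, 0.0094, 0.053 and 0.20 on arrays 1 to 4. The root mean square difference of BEM1 to CDC42 was 0.14, and 11 of the tested genes outside the 9 were as close or closer. The nearest 3 were COX10 (0.071), a gene of cytochrome oxidase assembly, MHR1 (0.085), which serves the mitochondrial genome, and TBS1 (0.093), for a putative zinc cluster protein. COX10 was at 0.64, -0.99, -0.037 and 0.17 on arrays 1 to 4. With 4 arrays, and a profile set by arrays 1 and 2, such closeness is a description of these arrays. The mean of arrays 1 and 4 minus that of arrays 2 and 3 was 0.93 for CDC42 and 0.76 for BEM1, and 0.825% and 2.18% of tested genes reached those sizes. As each of these pairs holds both dye orientations, that contrast is the difference between the cultures under one of the possible pairings of arrays. Under the other pairing, arrays 1 and 2 minus arrays 3 and 4, it was -0.11 for CDC42 and -0.086 for BEM1. The labels do not say which pairing is the right one.

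**Figure D4:**
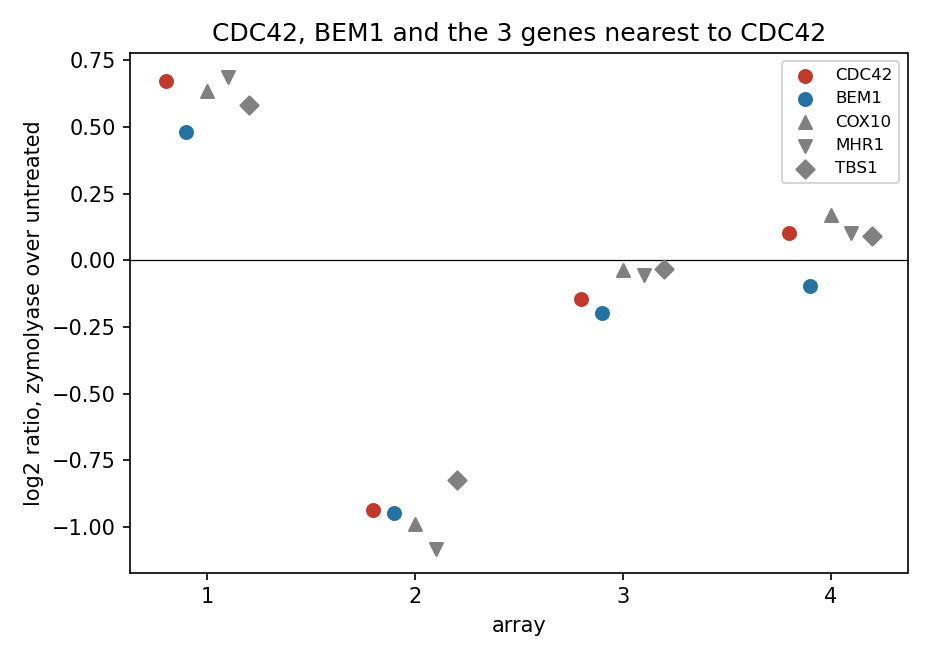
Log2 ratio of zymolyase over untreated RNA (vertical axis) by array (horizontal axis) for CDC42, BEM1 and the 3 tested genes with the smallest root mean square difference to CDC42. All 5 genes are above 0 on array 1 and lowest on array 2, and on array 4 BEM1 alone is below 0.

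The rest of the polarity machinery was read through 7 lists that together hold 65 genes, the 9 included, of which 59 had a value on every array. Outside the 9, 1 of 50 tested genes passed, against 3.15% of all tested genes. That gene was GIC2, which rose. The counts of unadjusted p under 0.05 in each list are given below without a share over all tested genes to set them against. Gic2 is an effector that binds active Cdc42 at the bud site. Its values were 0.50, 1.53, 0.36 and 0.69 on arrays 1 to 4, all above 0 and highest on array 2. The mean was 0.77 ± 0.52, a 1.70-fold level (limma adjusted p = 0.00020, or 0.028 with a dye term), and 0.52 without array 2. The smaller p rests on the standard error pooled over genes, not on the spread of GIC2 itself. With any 1 array left out GIC2 no longer passed (adjusted p between 0.092 and 0.43). Its paralogue GIC1 had -0.45, 0.43, -0.47 and 0.29, opposite in the dye orientations, with a mean of -0.050 ± 0.48 (limma adjusted p = 0.98), and -0.21 without array 2.

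Within the list of Cdc42 regulators, none of 9 passed and none had an unadjusted p under 0.05 (median -0.025). BEM4 was the lowest at -0.23 ± 0.29 (-0.13 without array 2) and BEM2, for a GTPase-activating protein, the highest at 0.073 ± 0.13. Of the 8 effectors, GIC2 rose and 7 did not pass (median 0.11). In limma 2 of the 8, GIC2 and MSB1, had an unadjusted p under 0.05. BOI1, for a Bem1-binding protein, was lowest at -0.27 ± 0.25 (-0.15 without array 2). MSB1, a gene tied to bud formation and chosen for mention after its values were seen, was at 0.39 ± 0.26 (limma adjusted p = 0.24; 0.28 without array 2). Formins and polarisome genes had 0 of 8 past the test and none with an unadjusted p under 0.05 (median 0.074), with MSB3, for a GTPase-activating protein of secretory Rab proteins, highest at 0.27 ± 0.23 (0.15 without array 2). BUD6, whose product works with Bni1, had no value on array 2 and 0.0018, 0.31 and -0.66 on arrays 1, 3 and 4.

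Actin cable and myosin genes had positive means in 8 of 8 tested, against 47.4% of all tested genes, and none passed (limma, none with an unadjusted p under 0.05; median 0.12). MYO4, a myosin that carries mRNA into the bud, was the highest at 0.22 ± 0.12, and MYO2, the motor of secretory vesicles, the lowest at 0.035 ± 0.68 (0.19 without array 2). MYO2 was 0.88 and 0.28 on arrays 1 and 3, with zymolyase RNA in Cy3, and -0.42 and -0.60 on arrays 2 and 4. The means of MYO2, ABP140 and SAC6, at 0.035, 0.037 and 0.037, were small beside the standard error of 0.16. Without array 3, where a dye effect no longer cancels, they were -0.046, -0.0046 and -0.0175.

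Bud site selection genes had 0 of 10 past the test and 2 with an unadjusted p under 0.05 (median 0.086). AXL2, a membrane landmark of the bud site, was highest at 0.42 ± 0.45 (limma adjusted p = 0.18), with 1.07 on array 2 and 0.064 to 0.38 on the others, whose mean was 0.20. RSR1, for the GTPase that links landmarks to Cdc24, was lowest at -0.15 ± 0.68. RSR1 was negative on array 2 alone, with values of 0.33, -1.15, 0.20 and 0.032 on arrays 1 to 4. Its mean without array 2, where a dye effect no longer cancels, was 0.19. Septins and their kinases had 0 of 7 past the test and 2 with an unadjusted p under 0.05 (median 0.19), from CDC10 at -0.34 ± 0.50 (limma adjusted p = 0.36) to GIN4 at 0.33 ± 0.23 (limma adjusted p = 0.38). The septin gene CDC10 stood at -1.06 on array 2 and between -0.30 and 0.041 on the others, whose mean was -0.097. The list of exocyst genes, whose products tether vesicles at the growth site, also held SEC4 and SEC2, for the Rab GTPase of those vesicles and its exchange factor. It had 0 of 9 past the test and none with an unadjusted p under 0.05 (median 0.073), from SEC2 at -0.032 ± 0.10 to the exocyst subunit gene SEC6 at 0.27 ± 0.41 (0.10 without array 2). SLT2, the gene of the last kinase of the wall integrity cascade, was at 0.43, -0.65, 0.17 and 0.040 on arrays 1 to 4 (mean -0.0010 ± 0.46, or 0.21 without array 2). An mRNA ratio does not measure the activity of that kinase, so these values do not check the pathway.

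**Figure D5:**
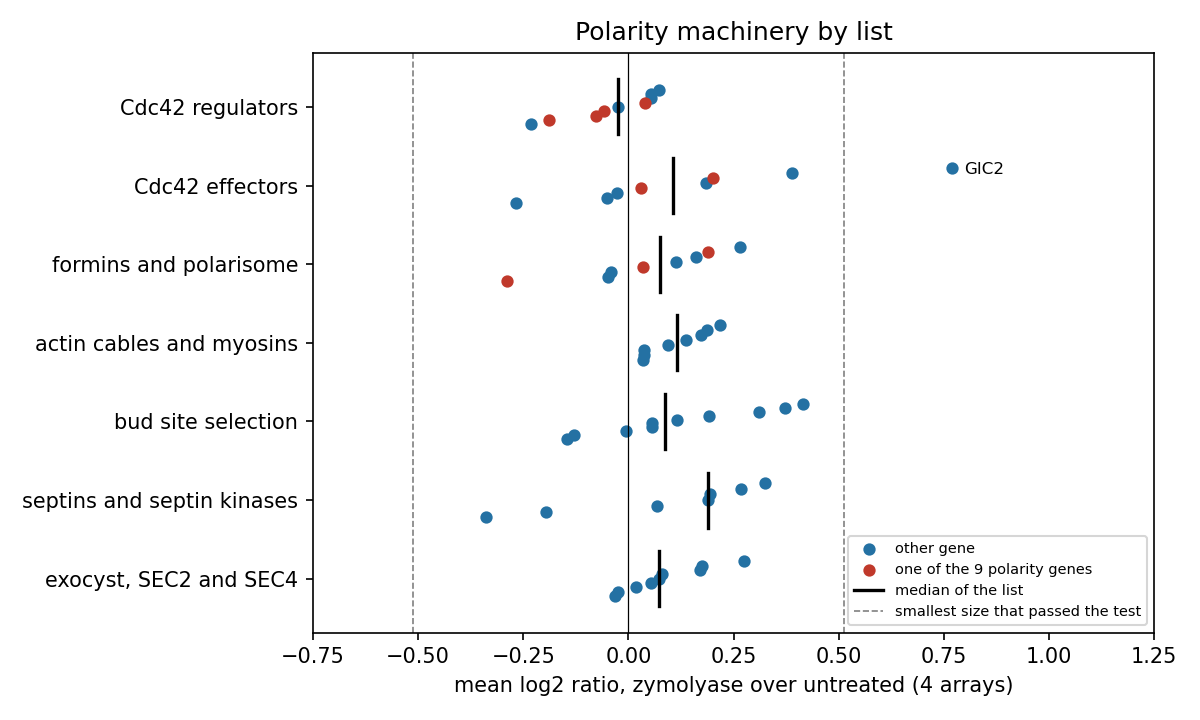
Mean log2 ratio of zymolyase over untreated RNA over the 4 arrays (horizontal axis) for each tested gene of the 7 polarity lists (rows), with the 9 genes in red, others in blue, the list median as a black bar and dashed lines at the smallest mean size that passed. GIC2 at 0.77 is the one gene beyond the lines.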

How the data were processed

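The deposited file holds 1 log ratio of the channels per feature and array. These deposited ratios were read as log2 values; the log base, scanner, background correction, normalization and rule for blanks are not stated in the labels or the file header, and no intensities were analysed. Arrays 2 and 4 were multiplied by -1. The reason was that of the 20 genes strongest on their weakest array, 18 had one sign after turning and 2 as deposited. Other rankings were less clear. The top 20 by mean size gave 15 and 3. The top 100 gave 57 and 26, or 51 and 29 by mean size. Over all tested genes one sign was commoner as deposited (28.5% against 16.8%), so the turning rests on the strongest ratios. Of 6209 features, 2 controls were left out; 5711 matched the R64 RefSeq gene table (57 by an older name), 496 kept their own name, and features of 1 gene were averaged (34 genes). Of 6172 genes, the 4730 measured on each of the 4 arrays were tested.

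The arrays of a culture were averaged, and culture means were tested against 0 with limma 3.58.1 in R 4.3.3 (lmFit, eBayes). The p-values were adjusted over all tested genes. The procedure was also run on simulated data in which every gene had the same noise, so that run does not bear on genes of unequal spread. The labels do not pair arrays with cultures. The design text gives each sample a dye swap, so array 1 shares its culture with array 2 or array 4, and each possibility was fitted. Pairing array 1 with array 3, of the same orientation, was not. The larger p and SE are given. P-values rest on the means of 2 cultures and on a spread pooled over all tested genes. In the main fit every gene had the same standard error, so a gene's own spread did not enter its p-value. SDs are over 4 arrays.

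The members and lists were chosen with earlier results of these data known, so no list was tested. Named genes were the 9, each list's called, highest and lowest genes, the 3 nearest to CDC42, and RLM1 and SLT2. GIC1, MSB1, BUD6, ABP140 and SAC6 were added after their values were seen. One further list of related genes is not reported here.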

Additional observations from a re-analysis of the deposited data

How the results depend on the processing

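No polarity gene of the 9 passed the limma test under any of 12 alternatives: a dye term on the 4 arrays, either pairing alone, each array left out, median centring, scaling to equal spread, ratios taken as already turned, genes with a value on 1 array of each orientation, and single features. Unadjusted, 3 had p under 0.05 in limma with ratios taken as already turned, and 0 otherwise. That setting also gave more calls over the whole table, 316 against 149 in the main fit. For unadjusted counts, here and for the wider lists below, no share of all tested genes is given to set them against. Their median stayed between -0.0041 and 0.068 with 1 array left out. Read as already turned, 6 of the 9 changed sign: CDC42 to 0.34, CDC24 to 0.12, BEM1 to 0.33, STE20 to -0.0088, CLA4 to -0.37 and BNR1 to -0.25. BNI1, SPA2 and RGA1 kept their sign at -0.0033, 0.029 and 0.011, against -0.29, 0.19 and 0.040 in the main fit. As deposited, BNI1 and SPA2 had values of both signs over the arrays. GIC2 became -0.34 and MYO2 passed. With the arrays scaled to equal spread, CDC42 turned to 0.10 and BNR1 to -0.057. With 1 array left out, the mean of CDC42 ran from -0.33 to 0.21, CDC24 from -0.11 to 0.020, BEM1 from -0.41 to 0.063, STE20 from -0.011 to 0.068, CLA4 from -0.044 to 0.35, BNR1 from -0.14 to 0.21 and GIC2 from 0.52 to 0.91. Leaving out array 2 changed the sign of those first 6, and leaving out array 3 also that of STE20 (-0.0041). With any 1 array left out a dye effect no longer cancels, so these shifts mix the array with dye orientation. The wider lists had 0 genes past the test without any 1 array (2 to 4 with an unadjusted p under 0.05), where fewer genes of the whole table passed too, 9 to 35 against 149. Over the whole table scaling to equal spread gave 69 calls, the dye term 77, and ratios taken as already turned 316; the cause was not tested. No paired analysis was possible because the arrays form 1 group with no second group to pair by number; each ratio is itself a comparison within an array. Signal over background is unknown. The number of arrays limits the precision.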
